A study of Homo sapiens with 6 samples.

Results

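The small nucleolar RNA (snoRNA) host genes are genes whose introns carry snoRNAs or related small RNAs. They were taken by name: every row of the count table whose symbol was SNHG followed by a number, together with GAS5, ZFAS1, EPB41L4A-AS1, TMEM161B-DT and MIR17HG. This gave 33 of the 24960 genes in the table, and 29 of the 33 had enough counts to be tested. The RNA came from K562, an established cell line from a human chronic myeloid leukemia, in a control group of 3 libraries and a hyperoside group of 3 libraries. Hyperoside, a plant flavonol glycoside, was used at 2 mM. How long the cells were treated before RNA was taken, what the control cells received and whether the replicates were separate cultures are not given in the sources used here, so the p-values measure only the spread between these libraries. The comparison asks which genes differ in K562 cells with and without hyperoside.

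A snoRNA host gene is transcribed and spliced like other genes, and its small RNAs are cut out of the removed introns and bound by proteins. Box C/D snoRNAs guide methylation of ribosomal RNA and box H/ACA snoRNAs guide its pseudouridylation, whereas small Cajal body RNAs (scaRNAs) act mainly on the RNAs of the spliceosome. The spliced host RNA of many of these genes encodes no known protein and is broken down by nonsense-mediated decay, so its level reflects transcription and decay together. Some host genes begin with a run of pyrimidines at the start of transcription, the terminal oligopyrimidine (TOP) motif also found in genes for ribosomal proteins.

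The libraries held 35613283 to 36754725 counts on genes, and a count of 0 allows up to 3 counts, which is at most 0.0853 CPM (counts per 1000000 after TMM scaling of the library) and covers counting error only. The erythroid and leukemia genes HBG1, HBG2, HBZ, HBE1, GATA1, TAL1, LMO2, KLF1 and EPOR, taken as K562 markers, were present in all 6 libraries at 6.93 CPM or more. The labels name bone as the tissue, but BGLAP, SP7 and ALPL, made by bone-forming cells, had at most 7 counts in any library, and COL1A1 and COL1A2 lay between 1.28 and 3.76 CPM. In a bulk sample, fewer cells of a kind and less RNA per cell cannot be told apart. No row of the count table had a symbol starting with SNORA, SNORD or SCARNA, so the snoRNAs and scaRNAs themselves could not be read from it. Each value below is that of the host gene as counted by the authors. For SNHG10 the counted length takes in its small RNA.

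The symbols did not settle what each gene carries, so RefSeq and GENCODE 29 annotation on GRCh38 was read for small RNAs inside each gene. Box C/D snoRNAs alone were listed in 13 of the 33 genes, box H/ACA snoRNAs alone in 10, both kinds in 2 and a scaRNA in 4. MIR17HG carried no snoRNA and 6 microRNA genes, and SNHG27, SNHG28 and TMEM161B-DT had none listed by symbol. By this annotation the group's name therefore did not hold for MIR17HG and was not borne out for SNHG27, SNHG28 and TMEM161B-DT. The small RNAs of the 4 called genes with the largest decreases and of SNHG20, the remaining tested scaRNA host, are shown first, since they are what those transcripts carry. Of the 8 snoRNAs in SNHG1, 3 that hold an exact TGATGA and CTGA are printed, and SNORD22, SNORD26 and SNORD28 were found without an exact TGATGA. Capitals mark the ACA box near the 3′ end of the scaRNAs, and the C box TGATGA and D box CTGA of the box C/D snoRNAs. All are DNA letters of GENCODE 29 transcripts on GRCh38.
SCARNA13 of SNHG10, chr14:95533355-95533629, minus strand: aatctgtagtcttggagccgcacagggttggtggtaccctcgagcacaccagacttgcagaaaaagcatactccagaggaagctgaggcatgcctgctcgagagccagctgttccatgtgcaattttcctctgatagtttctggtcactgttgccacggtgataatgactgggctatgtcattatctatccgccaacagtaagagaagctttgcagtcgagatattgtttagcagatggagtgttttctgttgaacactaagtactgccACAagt
SCARNA15 of SNHG21, chr15:82755945-82756071, plus strand: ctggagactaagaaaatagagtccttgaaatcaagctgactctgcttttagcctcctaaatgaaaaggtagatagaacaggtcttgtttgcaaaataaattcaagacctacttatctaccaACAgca
SCARNA16 of SNHG20, chr17:77089307-77089493, plus strand: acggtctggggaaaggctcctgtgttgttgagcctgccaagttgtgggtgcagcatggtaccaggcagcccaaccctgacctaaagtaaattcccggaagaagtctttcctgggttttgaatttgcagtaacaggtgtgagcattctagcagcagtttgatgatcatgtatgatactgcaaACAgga
SNORD60 of SNHG19, chr16:2155023-2155105, minus strand: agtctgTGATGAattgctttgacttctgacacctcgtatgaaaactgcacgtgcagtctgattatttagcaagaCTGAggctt
SNORD25 of SNHG1, chr11:62855564-62855632, minus strand: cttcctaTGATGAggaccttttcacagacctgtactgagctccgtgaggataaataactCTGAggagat
SNORD27 of SNHG1, chr11:62855012-62855083, minus strand: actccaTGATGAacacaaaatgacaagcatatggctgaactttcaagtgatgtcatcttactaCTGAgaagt
SNORD30 of SNHG1, chr11:62853663-62853732, minus strand: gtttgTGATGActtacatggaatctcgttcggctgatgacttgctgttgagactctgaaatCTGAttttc

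Of the 29 tested genes, 13 were lower in the hyperoside group at an adjusted p under 0.05 (edgeR's quasi-likelihood test, Benjamini-Hochberg adjusted over every gene tested). That is 44.8% of them, beside 23.2% of all 15095 tested genes. None was called higher, against 22.1% of all genes. At an unadjusted p under 0.05 edgeR found 2 higher, SNHG26 and TMEM161B-DT, and DESeq2 called 0 after adjustment and found 1 at the unadjusted threshold. The 13 lower genes were SNHG10, SNHG19, SNHG21, SNHG1, SNHG20, SNHG3, SNHG15, SNHG30, SNHG12, SNHG6, SNHG7, ZFAS1 and GAS5. The median log2 fold change was -0.21 over the tested members and 0.00 over all tested genes. Applying the study's criterion of an adjusted p under 0.05 together with a fold change under 0.5, only SNHG10 was a downregulated DEG in the comparison of all 6 libraries, which is 3.45% of the tested members beside 3.76% of all genes. No member was an upregulated DEG, against 6.43% of all genes. All 3 hyperoside libraries lay below all 3 control libraries for 13 members (44.8%; 27.3% of all genes), and above them for 2 (6.90%; 27.1% of all genes).

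**Figure D1:**
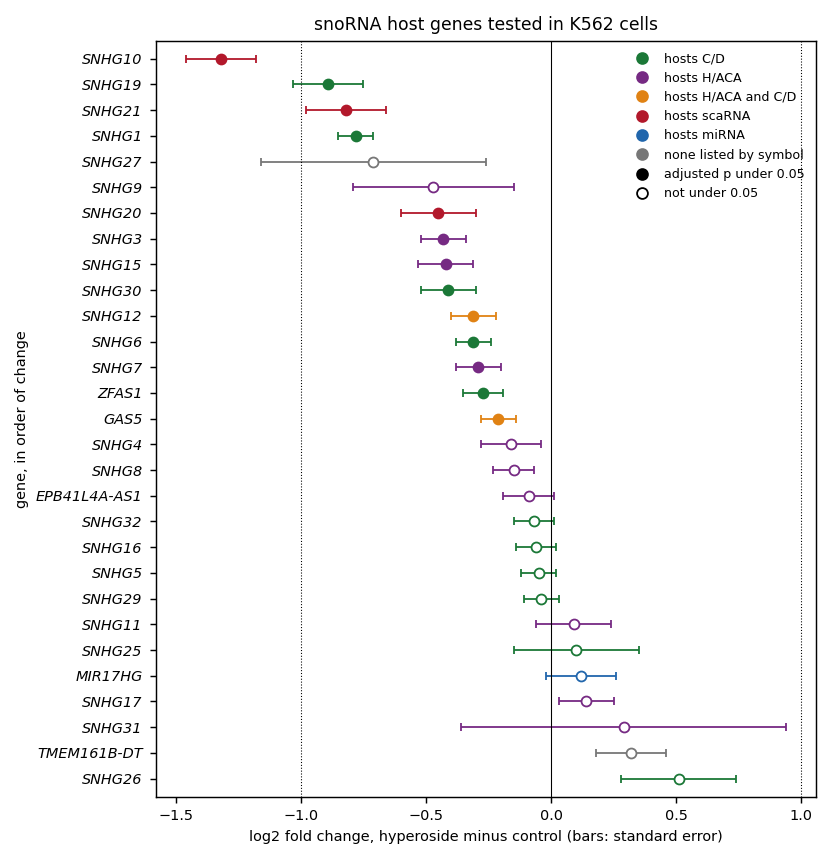
Log2 fold change of the 29 tested snoRNA host genes, hyperoside minus control, with standard error bars, coloured by the small RNAs each gene carries. Filled points have an adjusted p under 0.05, dotted lines mark a doubling or halving, and the 13 filled points all lie left of 0, from -1.32 for SNHG10 to -0.21 for GAS5.

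The count of 13 depended on which libraries and which genes entered. Hyperoside replicate 2 was the lowest of its group in 16 of the 29 members (55.2%; 35.9% of all genes), and without it 9 members were called lower, with GAS5, SNHG20, SNHG7 and ZFAS1 lost. Control replicate 1 was the highest of its group in 16 members (55.2%; 42.1% of all genes), and without it 12 were called lower, with SNHG20 lost. Without hyperoside replicate 1 the count was 10, with GAS5, SNHG20 and SNHG7 lost, and without each of the other 3 libraries it was 12. The calls over all genes moved as well, from 3508 lower with every library to 3009 without hyperoside replicate 2 and 2858 without hyperoside replicate 1. They numbered 3618 without control replicate 1 and 2891 to 3277 without each of the other 3 libraries. Exons of another gene overlapped those of 16 tested members, on either strand, and since the use of strand in counting is not given, reads of such pairs may not have been separated. Among the 12 tested members without such an overlap 3 were called lower, namely SNHG1, SNHG19 and SNHG15, a share near the 23.2% of all genes.

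SNHG10 showed the largest decrease among the tested members. It carries SCARNA13, printed above, and lies on the minus strand at chr14:95532912-95534872 (GRCh38). Its level was 17.2, 18.1 and 15.6 CPM in control replicates 1, 2 and 3, and 5.94, 6.70 and 7.70 CPM in hyperoside replicates 1, 2 and 3. Every hyperoside library stood below every control library, and the group mean fell from 17.0 ± 1.27 to 6.78 ± 0.881 CPM (SD, n = 3 each), or to 40.0% of control. The log2 fold change was -1.32 with a standard error (SE) of 0.14 (edgeR adjusted p = 4.66e-07), and it stayed between -1.41 and -1.08 under 12 alternatives. The gene length behind the deposited FPKM was 1961 bases, which is the whole annotated span of SNHG10, introns included. The SCARNA13 interval was therefore part of what was counted, and its share of the reads was not tested. An exon of GLRX5, on the other strand, overlaps SNHG10 as well.

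The other scaRNA hosts also fell where they could be tested. SNHG21, host of SCARNA15, had 9.47, 8.21 and 7.58 CPM in the control libraries and 4.52, 5.23 and 4.54 CPM in the hyperoside libraries, with no overlap between the groups. Its log2 fold change was -0.82 (SE 0.16, edgeR adjusted p = 0.000529), and its exons overlap those of AC105339.2 on the same strand, which was not analysed here, and of FSD2 on the other strand. FSD2 was low but higher with hyperoside, at 0.236 CPM in the control group and 0.747 CPM in the hyperoside group (log2 fold change 1.65, edgeR adjusted p = 0.0369). SNHG20, host of SCARNA16 and the microRNA gene MIR6516, had 13.8, 9.86 and 12.5 CPM in the control libraries and 8.86, 7.68 and 10.02 CPM in the hyperoside libraries. Here the groups overlapped, since hyperoside replicate 3 lay above control replicate 2. The log2 fold change of SNHG20 was -0.45 (SE 0.15, edgeR adjusted p = 0.0231), and the call was lost in 6 of 12 alternatives, among them leaving out control replicate 1 (adjusted p = 0.0811), control replicate 3 (0.0571), hyperoside replicate 1 (0.0596) or hyperoside replicate 2 (0.105). SNHG20 shares exonic sequence on the same strand with SEC14L1, which fell by 0.26 on the log2 scale (edgeR adjusted p = 0.0123). SNHG22, host of SCARNA17, had 3, 3 and 12 counts in the control libraries and 1, 3 and 1 in the hyperoside libraries and was not tested. All 3 tested scaRNA hosts were thus lower, beside 23.2% of all genes, but this grouping was looked at with the values known and has no test. Exons of another gene overlap each of the 3.

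Among the hosts of box C/D snoRNAs alone, 5 of 11 tested were lower and none was called higher, beside 23.2% lower and 22.1% higher over all genes. SNHG1, which carries SNORD22 and SNORD25 to SNORD31, was the most abundant gene among those with a decrease past 0.5 on the log2 scale. It had 486.1, 528.5 and 481.1 CPM in the control libraries and 303.6, 277.9 and 291.2 CPM in the hyperoside libraries. Its replicates lay close together, and the mean went from 498.5 ± 26.1 to 290.9 ± 12.8 CPM (SD, n = 3 each), or 58.4% of control. The log2 fold change was -0.78 (SE 0.07, edgeR adjusted p = 9.19e-08), with a range of -0.81 to -0.72 under the 12 alternatives. No exon of another gene overlaps SNHG1.

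SNHG19, a short gene at chr16:2154782-2155358 on the minus strand that carries SNORD60, had 29.4, 25.9 and 21.1 CPM in the control libraries and 12.9, 11.9 and 16.3 CPM in the hyperoside libraries. The groups did not overlap, although the control replicates differed more among themselves than those of SNHG10. The log2 fold change was -0.89 (SE 0.14, edgeR adjusted p = 3.84e-05). It passed the fold change criterion of a DEG when control replicate 3 or hyperoside replicate 3 was left out, which gave 2 downregulated DEGs among the members in each case. The remaining box C/D hosts changed less. SNHG30, host of SNORD7, had 25.7, 24.3 and 20.3 CPM in the control libraries and 16.2, 19.3 and 17.4 CPM in the hyperoside libraries, a log2 fold change of -0.41 (SE 0.11, adjusted p = 0.00746).

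SNHG6, host of SNORD87, had 201.0, 193.2 and 200.8 CPM in the control libraries and 164.1, 147.9 and 167.4 CPM in the hyperoside libraries, a log2 fold change of -0.31 (SE 0.07, edgeR adjusted p = 0.00180). ZFAS1, a gene with SNORD12, SNORD12B and SNORD12C, had 229.4, 213.8 and 230.2 CPM in the control libraries and 182.9, 171.5 and 204.5 CPM in the hyperoside libraries. In both genes all hyperoside libraries lay below all control libraries. ZFAS1 had a log2 fold change of -0.27 (SE 0.08, edgeR adjusted p = 0.00804, and 0.053 without hyperoside replicate 2). The zinc finger gene ZNFX1, which overlaps it on the other strand, had a log2 fold change of 0.14 (adjusted p = 0.186).

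Of the 5 most abundant members per base, 3 were box C/D hosts that were not called. On the FPKM scale, in which the authors divided counts by gene length and library total, GAS5 led in the control group at 740.3 ± 21.2 FPKM (SD, n = 3), followed by SNHG32 at 687.5 ± 27.6, SNHG5 at 570.9 ± 23.1, SNHG29 at 382.3 ± 5.76 and SNHG1 at 321.7 ± 19.2 FPKM. The ranges of GAS5 and SNHG32 overlapped over the control libraries, and the other neighbours among these 5 did not. In the hyperoside group SNHG32 was first at 677.8 ± 83.6 FPKM and GAS5 second at 663.1 ± 56.3, again with overlapping libraries, while SNHG1 moved from rank 5 to rank 6 at 194.2 ± 9.4 FPKM, behind SNHG6 at 228.5 ± 14.7 FPKM. SNHG10 moved from rank 20 to rank 27 among the 33 genes.

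**Figure D2:**
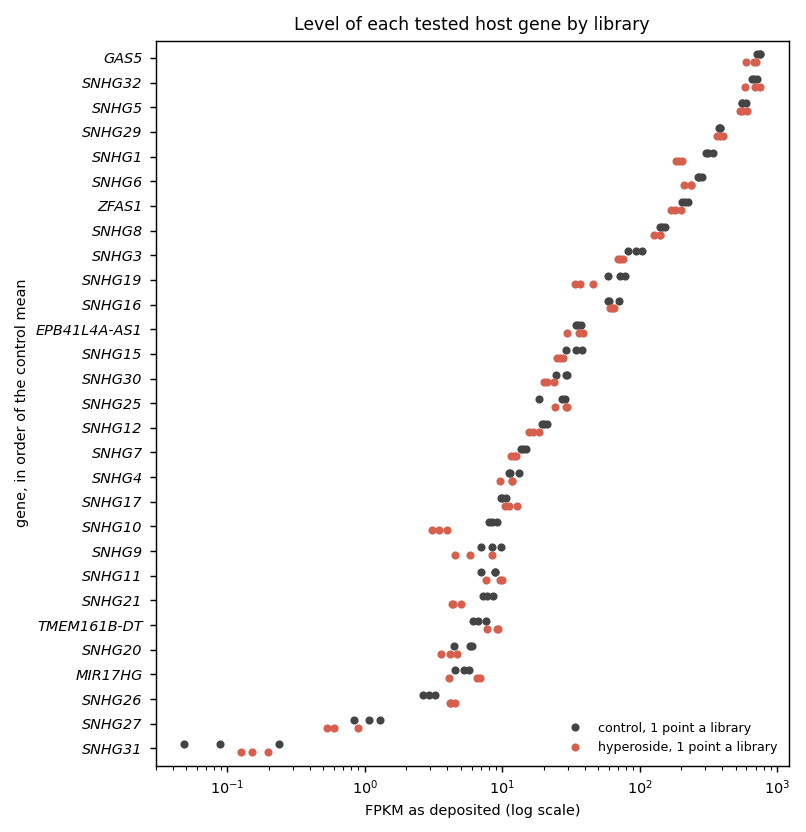
Deposited FPKM of the 29 tested snoRNA host genes on a log axis, 1 point a library, ordered by the control mean. The genes span GAS5, at 599.3 to 756.3 FPKM over the 6 libraries, down to SNHG31, at 0.0486 to 0.238 FPKM, and the groups stand apart for SNHG1 and SNHG10.

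SNHG29 carries SNORD49A, SNORD49B and SNORD65 and had the highest CPM of the group. It had 1010, 957.2 and 970.7 CPM in the control libraries and 942.4, 902.0 and 1019 CPM in the hyperoside libraries, and the groups overlapped. SNHG29 had a log2 fold change of -0.04, with an approximate 95% interval of -0.17 to 0.09. SNHG32, host of SNORD48 and SNORD52, had 591.1, 590.7 and 610.3 CPM in the control libraries and 579.2, 492.9 and 636.4 CPM in the hyperoside libraries. Hyperoside replicate 2 was the low library and hyperoside replicate 3 the high one. SNHG32 had a log2 fold change of -0.07 (interval -0.23 to 0.09).

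SNHG5, host of SNORD50A and SNORD50B, had 316.6, 287.2 and 280.7 CPM in the control libraries and 276.2, 269.1 and 306.7 CPM in the hyperoside libraries, with a log2 fold change of -0.05 (interval -0.20 to 0.09). SNHG16, host of SNORD1A, SNORD1B and SNORD1C, had 187.3, 154.3 and 150.1 CPM in the control libraries and 160.3, 153.3 and 158.0 CPM in the hyperoside libraries, with a log2 fold change of -0.06 (interval -0.22 to 0.10). For these abundant hosts the intervals leave out a decrease of the size seen in SNHG1. SNHG25, host of SNORD104, and SNHG26, host of SNORD93, were low, at 2.04 to 3.33 and 2.05 to 3.43 CPM. SNHG26 had 2.33, 2.05 and 2.46 CPM in the control libraries and 3.16, 3.43 and 3.13 CPM in the hyperoside libraries, so the hyperoside libraries were all higher. Its log2 fold change of 0.51 (SE 0.23) had an edgeR adjusted p of 0.0869, and limma-trend on log2(FPKM + 1) gave an adjusted p of 0.00609.

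GAS5 and SNHG12 carry both kinds of snoRNA and were both lower, beside 23.2% of all genes. GAS5, named for its rise in growth-arrested cells and host of 10 SNORD genes and SNORA103, had 636.4, 650.6 and 634.0 CPM in the control libraries and 567.5, 500.8 and 595.0 CPM in the hyperoside libraries. Its hyperoside libraries were all lower but spread over a wider range than its control libraries. The log2 fold change was -0.21 (SE 0.07, edgeR adjusted p = 0.0246). The call was lost in 6 of 12 alternatives, with adjusted p-values of 0.0815 without control replicate 2, 0.0620 without hyperoside replicate 1 and 0.133 without hyperoside replicate 2. SNHG12, with SNORD99, SNORA61, SNORA44 and SNORA16A, had 47.3, 43.5 and 41.7 CPM in the control libraries and 34.9, 38.6 and 33.4 CPM in the hyperoside libraries. For SNHG12 the log2 fold change was -0.31 (SE 0.09, edgeR adjusted p = 0.0105, and 0.0735 without hyperoside replicate 3).

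Of the 10 hosts of box H/ACA snoRNAs alone, 3 were lower, a share near the 23.2% of all genes, and none was called higher, beside 22.1% of all genes. SNHG3, host of the snoRNA pair SNORA73A and SNORA73B that acts in the processing of small-subunit ribosomal RNA, had 255.4, 225.0 and 194.3 CPM in the control libraries and 164.3, 174.3 and 163.4 CPM in the hyperoside libraries. The control replicates spread more widely than the hyperoside replicates, but the groups did not overlap. SNHG3 had a log2 fold change of -0.43 (SE 0.09, edgeR adjusted p = 0.000615). RCC1, which shares exonic sequence with SNHG3 on the same strand, went the other way (log2 fold change 0.34, edgeR adjusted p = 0.00288).

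SNHG15, host of SNORA9, had 39.2, 34.1 and 28.8 CPM in the control libraries and 25.4, 24.4 and 26.8 CPM in the hyperoside libraries, a log2 fold change of -0.42 (SE 0.11, adjusted p = 0.00487). SNHG7, host of SNORA17A and SNORA17B, had 42.2, 38.3 and 37.1 CPM in the control libraries and 31.9, 30.7 and 33.9 CPM in the hyperoside libraries. Its log2 fold change was -0.29 (SE 0.09, edgeR adjusted p = 0.0160), and the call was lost without hyperoside replicate 1 (0.0598) or hyperoside replicate 2 (0.0682). In all 3 of these H/ACA hosts control replicate 1 was the highest library of the 6. SNHG8, host of SNORA24, had 99.2, 88.5 and 89.3 CPM in the control libraries and 84.9, 77.3 and 86.9 CPM in the hyperoside libraries. Its groups did not overlap either, but its log2 fold change of -0.15 (SE 0.08) had an edgeR adjusted p of 0.125.

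The other 6 box H/ACA hosts were not called. SNHG4, with SNORA74A and SNORA74D, had a log2 fold change of -0.16 (interval -0.38 to 0.07) at 14.9 to 20.7 CPM. EPB41L4A-AS1, host of SNORA13, had 43.1, 43.1 and 44.4 CPM in the control libraries and 42.0, 35.0 and 45.9 CPM in the hyperoside libraries, with hyperoside replicate 2 apart from the rest. The log2 fold change of EPB41L4A-AS1 was -0.09 (interval -0.28 to 0.10). SNHG17 and SNHG11, neighbours on chromosome 20 that both carry snoRNAs of the SNORA71 family, had log2 fold changes of 0.14 (interval -0.09 to 0.36) and 0.09 (interval -0.21 to 0.40). SNHG9, host of SNORA78, had a log2 fold change of -0.47 with a wide interval of -1.10 to 0.17, at 1.04 to 2.29 CPM. SNHG31, host of SNORA70I, rested on 4, 7 and 19 counts in the control libraries and 12, 16 and 10 in the hyperoside libraries, too few to show a change of this size either way (log2 fold change 0.29, interval -0.99 to 1.58).

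Among the genes without a listed snoRNA, TMEM161B-DT, transcribed away from TMEM161B, had 9.73, 8.58 and 10.6 CPM in the control libraries and 12.6, 10.7 and 12.7 CPM in the hyperoside libraries. TMEM161B-DT had a log2 fold change of 0.32 (SE 0.14) with an edgeR adjusted p of 0.0654, and limma-trend on log2(FPKM + 1) gave 0.0293. Without hyperoside replicate 2 the edgeR adjusted p was 0.0454. SNHG27 was low, at 0.490 to 1.25 CPM, and its log2 fold change of -0.71 had an interval of -1.59 to 0.17.

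MIR17HG is the precursor of the miR-17-92 cluster, a set of microRNAs known for driving proliferation in blood cancers. It had 23.8, 26.9 and 28.5 CPM in the control libraries and 33.8, 32.2 and 20.4 CPM in the hyperoside libraries. Hyperoside replicate 3 was the lowest of the 6 libraries and the other hyperoside libraries were the highest. Its log2 fold change was 0.12 (interval -0.16 to 0.41, edgeR adjusted p = 0.508). Leaving out hyperoside replicate 3 gave 0.33 with an adjusted p of 0.0348, and leaving out hyperoside replicate 1 gave -0.01. The host level says nothing of the mature microRNAs, which were not measured. Of the 12 arms in RefSeq (GRCh38.p14), 6 are printed, 1 for each hairpin, with the seed, bases 2 to 8, in capitals. The seed AAAGUGC is shared by miR-17-5p and miR-20a-5p, and GUGCAAA by miR-19a-3p and miR-19b-3p.
hsa-miR-17-5p, chr13:91350618-91350640, plus strand: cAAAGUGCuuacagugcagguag
hsa-miR-20a-5p, chr13:91351072-91351094, plus strand: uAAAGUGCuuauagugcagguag
hsa-miR-18a-5p, chr13:91350756-91350778, plus strand: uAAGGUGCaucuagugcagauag
hsa-miR-19a-3p, chr13:91350939-91350961, plus strand: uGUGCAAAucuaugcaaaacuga
hsa-miR-19b-3p, chr13:91351245-91351267, plus strand: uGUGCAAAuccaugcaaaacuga
hsa-miR-92a-3p, chr13:91351361-91351382, plus strand: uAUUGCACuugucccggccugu

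A further 3 members had too few counts to test beside SNHG22. SNHG14, the long host of the SNORD115 and SNORD116 clusters in the Prader-Willi region, had 1 count in control replicate 1, 3 counts in hyperoside replicate 3 and 0 in the other 4 libraries. SNHG18 had 6 counts in control replicate 2 and 0 elsewhere. SNHG28 had 0, 8 and 4 counts in the control libraries and 0, 2 and 1 in the hyperoside libraries. A difference in these genes was not detectable at this depth.

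**Figure D3:**
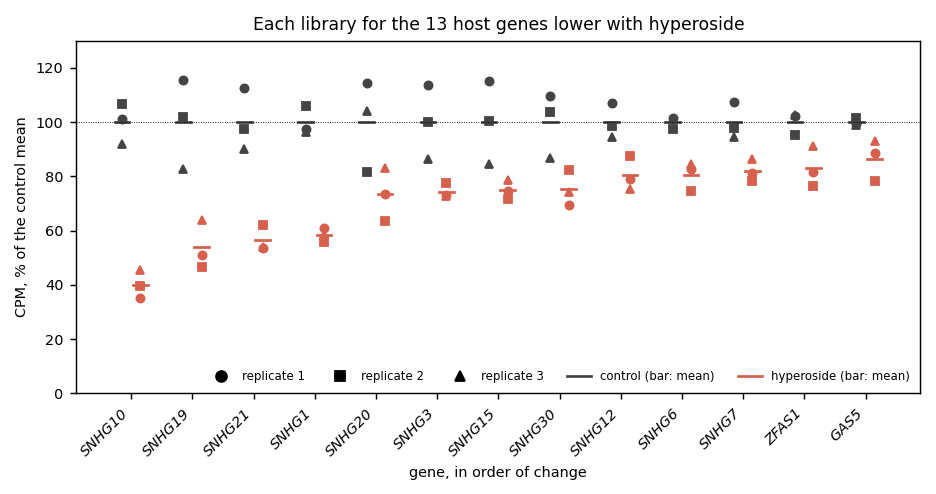
CPM of each library as a percentage of the control mean for the 13 snoRNA host genes called lower, in order of change. Bars are group means of 3 libraries, which run from 40.0% for SNHG10 to 86.6% for GAS5 in the hyperoside group, and SNHG20 is the gene whose groups overlap.

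Added together, the 33 genes took 0.417% to 0.418% of all counts in the control libraries and 0.351% to 0.394% in the hyperoside libraries. The groups did not overlap, and the lowest library was hyperoside replicate 2. Over the same libraries the non-coding genes of the table as a whole went up from 1.65% to 1.84% of counts to 1.97% to 2.10%. The members therefore made up 22.7% to 25.3% of non-coding counts in the control libraries and 17.3% to 19.96% in the hyperoside libraries. These shares are a description without a test. Of the other 2271 tested non-coding genes, 261 were lower (11.5%) and 455 higher (20.04%), with a median log2 fold change of 0.20. The microRNA host genes named in the same manner, MIR17HG aside, had 4 lower and 7 higher of 23 tested, with a median of 0.38. In that list MIR22HG had a log2 fold change of 1.48, MIR29B2CHG of 1.51, MIR4453HG of -1.36 and MIR3681HG of 1.19 (edgeR adjusted p = 1.17e-05, 0.0240, 3.71e-06 and 3.10e-06). MIR29B2CHG rested on low levels, at 0.170 to 1.17 CPM.

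Many host genes begin next to a gene that runs the other way, which raises the question of whether a change in the host was shared across the start region. A protein-coding gene on the other strand started within 1000 bases of 8 members, and in 6 pairs both genes were tested. SNHG1 starts 224 bases from SLC3A2, the gene of the heavy chain that pairs with the cystine and amino acid transporters. SLC3A2 had 436.7, 365.5 and 407.9 CPM in the control libraries and 496.8, 448.2 and 545.5 CPM in the hyperoside libraries, all hyperoside libraries being higher. Its log2 fold change was 0.30 (SE 0.08, edgeR adjusted p = 0.00618), opposite in direction to SNHG1. The log2 ratio of SNHG1 to SLC3A2 went from 0.31 ± 0.20 to -0.77 ± 0.12 (SD, n = 3 each).

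SNHG10 starts 178 bases from GLRX5, which encodes a mitochondrial glutaredoxin for iron-sulfur cluster assembly and heme synthesis. GLRX5 had 88.0, 80.7 and 77.6 CPM in the control libraries and 51.2, 51.3 and 48.7 CPM in the hyperoside libraries. Here both neighbours fell, GLRX5 with a log2 fold change of -0.70 (SE 0.08, edgeR adjusted p = 1.71e-06), and the log2 ratio of SNHG10 to GLRX5 moved from -2.28 ± 0.11 to -2.90 ± 0.23. Exons of this pair overlap on opposite strands, so their reads may not have been separated. SNHG19 starts 424 bases from the ubiquitin ligase gene TRAF7, whose log2 fold change was -0.16 (SE 0.08, adjusted p = 0.113), and the ratio moved from -2.80 ± 0.18 to -3.54 ± 0.19. GAS5 starts 665 bases from the zinc finger gene ZBTB37, at a log2 fold change of 0.24 (SE 0.12, adjusted p = 0.105), and the ratio moved from 3.56 ± 0.34 to 3.08 ± 0.16.

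In these 4 pairs the ratio of every hyperoside library lay below that of every control library. The exact two-sided permutation p was 0.10 for each, the smallest that 3 against 3 libraries allow, and 0.15 after Benjamini-Hochberg adjustment over the 6 pairs. For TMEM161B-DT and TMEM161B, 171 bases apart and also with overlapping exons on opposite strands, the ratio differed by 0.23 (exact permutation p = 0.30, adjusted 0.30). For SNHG31 and BARD1, 546 bases apart, the difference of 0.87 (exact permutation p = 0.30, adjusted 0.30) rested on the few counts of SNHG31. ACAA2, 490 bases from SNHG22, fell by 0.21 on the log2 scale (edgeR adjusted p = 0.0484), and SEMA5A, 125 bases from SNHG18, was not tested.

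**Figure D4:**
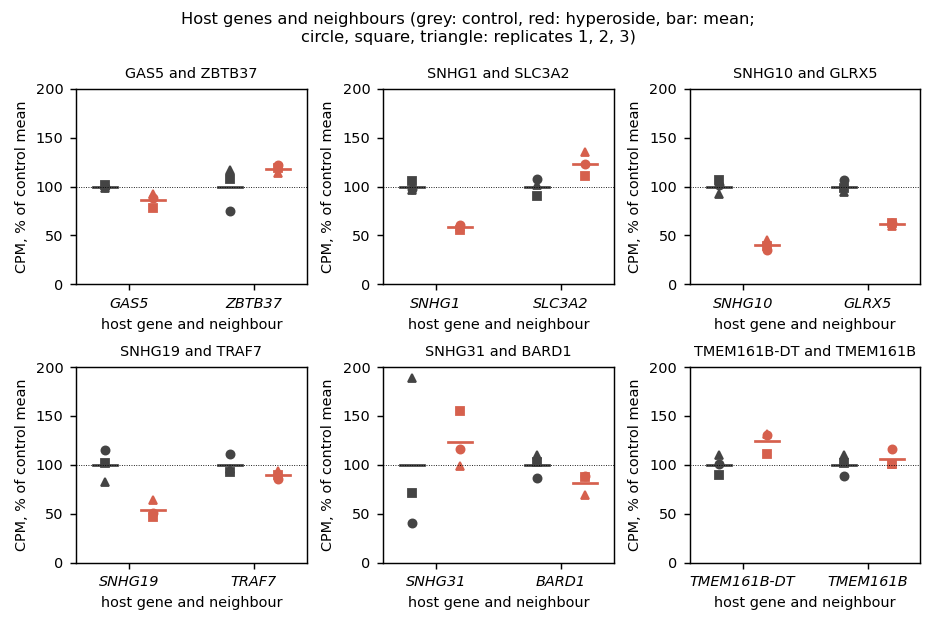
CPM of each library as a percentage of the control mean for 6 snoRNA host genes and the protein-coding gene that starts within 1000 bases on the other strand, with bars at the mean of 3 libraries. SNHG1 fell to 58.4% of control while SLC3A2 rose, and SNHG10 and GLRX5, whose exons overlap, both fell.

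The start regions of the members are shown because the TOP motif is read from them. RefSeq (GRCh38.p14) start regions were found for 29 of the 33 members. Printed are 50 bases on each side of the annotated start for the 3 members with the largest decrease (SNHG10, SNHG19, SNHG21), the 3 with the largest increase (SNHG26, TMEM161B-DT, SNHG31) and the 2 with the highest FPKM (GAS5, SNHG32). For TMEM161B-DT the first listed start was taken. Capitals mark the longest run of C and T inside the window of 20 bases on each side of the start. A run that goes on past the window is marked only inside it, as in SNHG26. A run outside the window is not marked, such as the longer one further down in GAS5.
SNHG10 promoter, chr14:95534823-95534922, minus strand: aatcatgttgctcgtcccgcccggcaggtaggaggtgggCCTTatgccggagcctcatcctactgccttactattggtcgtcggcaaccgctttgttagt
SNHG19 promoter, chr16:2155309-2155408, minus strand: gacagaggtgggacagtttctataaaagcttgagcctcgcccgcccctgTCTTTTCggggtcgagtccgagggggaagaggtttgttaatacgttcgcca
SNHG21 promoter, chr15:82750514-82750613, plus strand: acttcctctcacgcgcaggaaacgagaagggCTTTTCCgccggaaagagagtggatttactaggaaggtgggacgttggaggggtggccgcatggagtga
SNHG26 promoter, chr7:22854190-22854289, plus strand: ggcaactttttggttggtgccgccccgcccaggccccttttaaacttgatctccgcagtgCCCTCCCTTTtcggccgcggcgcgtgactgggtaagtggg
TMEM161B-DT promoter, chr5:88268966-88269065, plus strand: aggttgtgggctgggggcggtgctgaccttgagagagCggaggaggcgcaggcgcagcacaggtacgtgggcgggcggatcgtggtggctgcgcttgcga
SNHG31 promoter, chr2:214810179-214810278, plus strand: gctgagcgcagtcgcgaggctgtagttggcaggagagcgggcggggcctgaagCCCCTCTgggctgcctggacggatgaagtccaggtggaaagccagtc
GAS5 promoter, chr1:173868996-173869095, minus strand: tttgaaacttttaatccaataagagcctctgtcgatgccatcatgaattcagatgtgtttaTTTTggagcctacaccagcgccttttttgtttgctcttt
SNHG32 promoter, chr6:31834866-31834965, plus strand: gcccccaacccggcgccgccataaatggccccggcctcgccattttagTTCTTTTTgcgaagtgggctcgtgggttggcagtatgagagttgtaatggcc

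A run of 7 or more C or T letters lay within 20 bases of the start in 15 of the 29 members (51.7%), beside 25.6% of 35116 RefSeq start regions. The share was 13 of 25 among tested members and 6 of 11 among those called lower, so runs were about as common in called members as in the tested members as a whole. SNHG19, with a run at its start, fell, while SNHG32, with a run at its start, did not pass the test, and SNHG10, without such a run, fell most. Over the full window of 250 bases before and 50 after the start, read on both strands, CACGTG was in SNHG7 and SNHG30 (2 of 29, or 6.90%, beside 7.26% of all start regions). TGATGCAA was in 0 of 29, beside 0.866% of all. A run or motif is a match of letters only, and whether a run falls in the window rests on the annotated start.

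The 45 protein-coding genes listed as snoRNA hosts gave 44 tested genes, of which 16 (36.4%) were lower and 4 (9.09%) higher, with a median log2 fold change of -0.15. Many of them encode ribosomal proteins, with decreases of 0.18 to 0.58 on the log2 scale among those called. The largest change in the list was a rise in PPAN, a ribosome assembly factor (log2 fold change 1.35 at 1.62 to 5.42 CPM, edgeR adjusted p = 0.000139). EIF4G2, a translation initiation factor, had a log2 fold change of 0.85 (adjusted p = 2.16e-08), RPL17 of -0.58 (0.00041) and DKC1 of -0.52 (2.99e-05). Control replicate 1 was the highest control library in 39 of these 44 genes (88.6%; 42.1% of all genes), and its part in the decreases was not tested. The 20 non-ribosomal genes with a TOP motif had 2 lower, among them BTF3 (log2 fold change -0.17, edgeR adjusted p = 0.0427), and none higher by edgeR, with a median of -0.09.

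The proteins that bind the small RNAs moved in part. Of the 4 box H/ACA core proteins, the pseudouridine synthase DKC1 (log2 fold change -0.52, edgeR adjusted p = 2.99e-05) and NHP2 (-0.45, 0.00112) were lower, and GAR1 and NOP10 were not called. Of the 4 box C/D core proteins, the methyltransferase FBL (-0.37, 0.000651) and SNU13 (-0.28, 0.00484) were lower and NOP58 was higher (0.31, 0.0106). Of 12 assembly and transport factors, 5 were lower and none was called higher. They were PIH1D1 of the R2TP chaperone (-0.59, 8.50e-06), the nucleolar chaperone NOLC1 (-0.54, 2.40e-05), the H/ACA assembly factor NAF1 (-0.50, 0.000403), the cap methylase TGS1 (-0.41, 0.00110) and RUVBL2. The list's median was -0.16.

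Nonsense-mediated decay and exon junction factors, 16 genes, were split with 3 lower and 3 higher and a median of -0.01. SMG8, a regulator of the UPF1 kinase, was higher (0.61, edgeR adjusted p = 4.42e-05). PNRC2 (-0.41, 0.000255), the helicase UPF1 (-0.25, 0.00915) and SMG5 (-0.24, 0.0224) were lower. These lists were chosen with earlier results of the same libraries known, and their counts stand beside 23.2% lower and 22.1% higher over all genes.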

How the data were processed

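Libraries were made from Trizol-extracted RNA of K562 cells, 3 control and 3 hyperoside samples, for an Illumina HiSeq platform. The submitters' processing notes name fastp, HISAT2, HTSeq and hg38, without versions. The use of strand is not given in the sources used here. The authors deposited raw counts per gene and FPKM values, which divide the counts by gene length and library total. The same length accounted for a member's FPKM in every library with counts.

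Counts were tested in R 4.3.3 with edgeR 4.0.16 (filterByExpr with a minimum count of 10 and minimum total of 15, TMM normalization, quasi-likelihood test, condition as the only term) and Benjamini-Hochberg adjustment over 15095 genes. Printed CPM use the TMM library sizes. The study used DESeq at a Q value under 0.05 and a fold change above 2 or under 0.5, and these thresholds were kept. The SE is the size of the log2 fold change divided by the square root of F, and intervals use a normal approximation. Alternatives used DESeq2 1.42.0 and limma 3.58.1 on log2(FPKM + 1) and log2(FPKM + 0.1), normalization, filtering, a replicate block, each library left out and members without exon overlap. The fit was also run on simulated counts, with log2 fold changes larger than that of any tested member. That run does not show how well smaller changes are called. Tables and plots were made in Python 3.11.15 (pandas 2.3.3, numpy 2.4.6, matplotlib 3.10.9).

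Every member is named. List genes named are up to 4 called per list with the largest change, apart from RUVBL2 and genes that overlap a member, which were chosen after their values were seen. Neighbours are protein-coding genes on the other strand within 1000 bases. The members and lists were chosen with earlier results of these data known. Pathway and description columns were not used. Some genes that these rules take are not reported here.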

Additional observations from a re-analysis of the deposited data

How the results depend on the processing

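The decreases of SNHG10, SNHG19, SNHG21, SNHG1, SNHG3, SNHG15, SNHG30 and SNHG6 stayed called, in the same direction, under each of the 12 alternatives. The count of members lower was 13 with DESeq2, DESeq2 size factors or no filter on low counts, and 11 with limma-trend. With a library left out it was 9 to 12, beside 2858 to 3618 of all genes. It was 3 among members without exon overlap, where fewer genes were counted, and no downregulated DEG, 0, was then left. Members called higher numbered 2 with limma-trend at either pseudocount and 0 to 1 with a library left out, and downregulated DEGs among members 1 to 2. With limma-trend on log2(FPKM + 1), 208 genes of all were upregulated DEGs and 136 downregulated, and the cause was not tested. The replicate numbers did not pair the samples (correlations of same-numbered libraries -0.081 to -0.0327), and the replicate block gave 12 members lower, with GAS5 lost (adjusted p = 0.0552). SNHG29 turned to 0.01 with limma-trend at either pseudocount. With 1 library left out, small changes turned sign: SNHG29 ranged from -0.08 to 0.00, SNHG16 from -0.12 to 0.05, SNHG5 from -0.10 to 0.00, SNHG11 from -0.02 to 0.21, SNHG25 from -0.08 to 0.25, SNHG32 from -0.15 to 0.02, SNHG31 from -0.07 to 1.13, MIR17HG from -0.01 to 0.33 and EPB41L4A-AS1 from -0.17 to 0.01. Few counts limit SNHG31, SNHG27, SNHG9 and SNHG25.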
